A study of Mus musculus with 16 samples.

Results

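The genes described here are 37 genes of cholesterol synthesis and its control in mouse macrophages. They were chosen by name from among the 10920 genes of the deposited tables, with earlier results of these data known. Of the 37 genes, 18 encode steps of synthesis, with 7 in the mevalonate pathway and 11 in the sterol pathway. The other 19 cover the control of the SREBP transcription factors, fatty acid synthesis, the LXR receptors, LXR targets and cholesterol efflux, and the handling of cholesterol inside the cell. Synthesis and efflux are described separately. Macrophages were grown from the bone marrow of C57BL/6 mice aged 8 weeks, in medium with M-CSF at 20 ng/ml for 7 days, and RNA was sequenced. The 16 libraries form 4 groups of 4, which are macrophages with Sirt3 K223R after 24 hours with 20 ng/ml of IL-4, untreated Sirt3 K223R macrophages, wild-type macrophages with the same IL-4 treatment, and untreated wild-type macrophages. Sirt3 is a mitochondrial deacetylase, and K223R replaces a lysine of the protein with arginine. All 4 groups share the strain, the age and the culture with M-CSF. The labels do not say whether the mice were homozygous, or whether replicates came from separate mice, so p-values measure only the spread between these samples, which may be technical.

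Cells make cholesterol from acetyl-CoA. The mevalonate steps build isoprenoid units and join them into farnesyl diphosphate, and the sterol steps turn this into squalene, then lanosterol, then cholesterol. When the membrane of the endoplasmic reticulum is poor in cholesterol, Scap carries the SREBP precursors to the Golgi, where they are cut to release transcription factors that raise synthesis and uptake genes, while the Insig proteins hold Scap back when sterols are plentiful. The LXR receptors are switched on by oxidised sterols and raise genes that export cholesterol, such as Abca1 and Abcg1, and genes that limit its uptake, such as Mylip. IL-4 is a cytokine that drives macrophages toward the state called alternative activation.

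Values are FPKM, fragments scaled to transcript length and library size, a unit inferred from the values. Changes are differences of mean log2(FPKM + 1) with the standard error (SE) of the fit, which understate the change of low genes. A gene is called where the limma p-value, adjusted over the 9891 genes tested, is under 0.05. Summed FPKM per library lay between 288143 and 306581, and the median correlation of a library with the others of its group between 0.98 and 0.99. Replicate 2 of the Sirt3 K223R libraries with IL-4 stood apart from the others, with the lowest such correlation (0.9797, where the others were 0.985 or more) and the lowest median FPKM (5.37). All 4 IL-4 response markers (Arg1, Chil3, Retnla and Mrc1) were called higher with IL-4 in both genotypes. With IL-4 these 4 summed to 10445 to 13425 FPKM in Sirt3 K223R cells and 3425 to 3974 FPKM in wild-type cells. Between the genotypes with IL-4, 2 of the 4 were called higher in Sirt3 K223R cells, where 5.0% of all genes tested were. For the interaction 1 of the 4 was called higher, where 0.778% of all genes were. The part of this in the genotype differences of the 37 genes was not tested. Sirt3 itself differed between Sirt3 K223R and wild-type cells by -0.02 ± 0.08 with IL-4 and by 0.05 ± 0.08 without it on the log2 scale, and a point change is not visible in such values. Of 9 macrophage markers measured, Mertk, Fcgr1, Lyz2 and Cd14 were called lower with IL-4 in both genotypes and 0 higher, and Fcgr1 and Cd14 were called lower in Sirt3 K223R than in wild-type cells with IL-4. Their summed FPKM was 11033 to 12864 in Sirt3 K223R cells given IL-4, against 13523 to 16280 in untreated Sirt3 K223R cells, and 11017 to 12071 in wild-type cells given IL-4, against 14692 to 16329 in untreated wild-type cells. The summed FPKM of 6 neutrophil and precursor markers was 53.9, 47.3, 63.9 and 40.4 with IL-4 in Sirt3 K223R cells, against 145, 105, 124 and 137 in untreated Sirt3 K223R cells. In wild-type cells it was 53.5, 63.4, 105 and 91.2 with IL-4, against 78.8, 92.05, 165 and 119 without it. Of the stromal markers 2 were tested, and both were called lower with IL-4 in each genotype, while Cd79b, the 1 B cell marker tested, was called in neither. Over all genes tested, 29.1% were called lower with IL-4 in Sirt3 K223R cells and 15.3% in wild-type cells. Between the genotypes with IL-4, 10.0% of all genes tested were called lower in Sirt3 K223R cells. None of the markers listed for dendritic, T, NK and mast cells was among the 10920 genes read here, so those cells could not be assessed.

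With IL-4, 9 of the 17 cholesterol synthesis genes tested rose in both genotypes. In Sirt3 K223R cells 10 of the 17 were called higher and 1 lower, and in wild-type cells 9 were called higher and 1 lower. Hmgcs1, Mvd, Idi1, Fdps, Fdft1, Sqle, Cyp51, Nsdhl and Ebp rose in both, and Sc5d fell in both. Among all genes tested, 13.5% were called higher and 29.1% lower with IL-4 in Sirt3 K223R cells. In wild-type cells the shares were 10.7% higher and 15.3% lower, and the share called in both genotypes was not counted. The median log2 change of the 17 genes was 0.26 in Sirt3 K223R cells and 0.29 in wild-type cells, where the medians over all genes were -0.09 and -0.04. Hsd17b7, a sterol reductase, lay below 1 FPKM in all 16 libraries and was not tested. It is the only gene of the 37 left out by the filter.

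Summed over all 18 synthesis genes, FPKM was 138, 149.8, 139.7 and 143 in Sirt3 K223R cells given IL-4, against 109, 121, 104 and 116 in untreated Sirt3 K223R cells. In wild-type cells the sum was 135, 127, 134 and 128 with IL-4, against 109.9, 109, 111 and 108 without it. The IL-4 and untreated libraries did not overlap in either genotype. Of 14 proliferation genes tested, 0 were called higher with IL-4 in either genotype, while 3 were called lower in Sirt3 K223R cells and 2 in wild-type cells. The shares of all genes tested called lower were 29.1% and 15.3%, so these counts lie near those shares. Of the 6 neutrophil markers, 6 were called lower with IL-4 in Sirt3 K223R cells and 4 in wild-type cells, and the part of these or of the macrophage markers in the rise of synthesis genes or in the changes of the other genes was not tested. In bulk RNA, fewer cells of a type and less RNA per cell cannot be told apart.

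**Figure D1:**
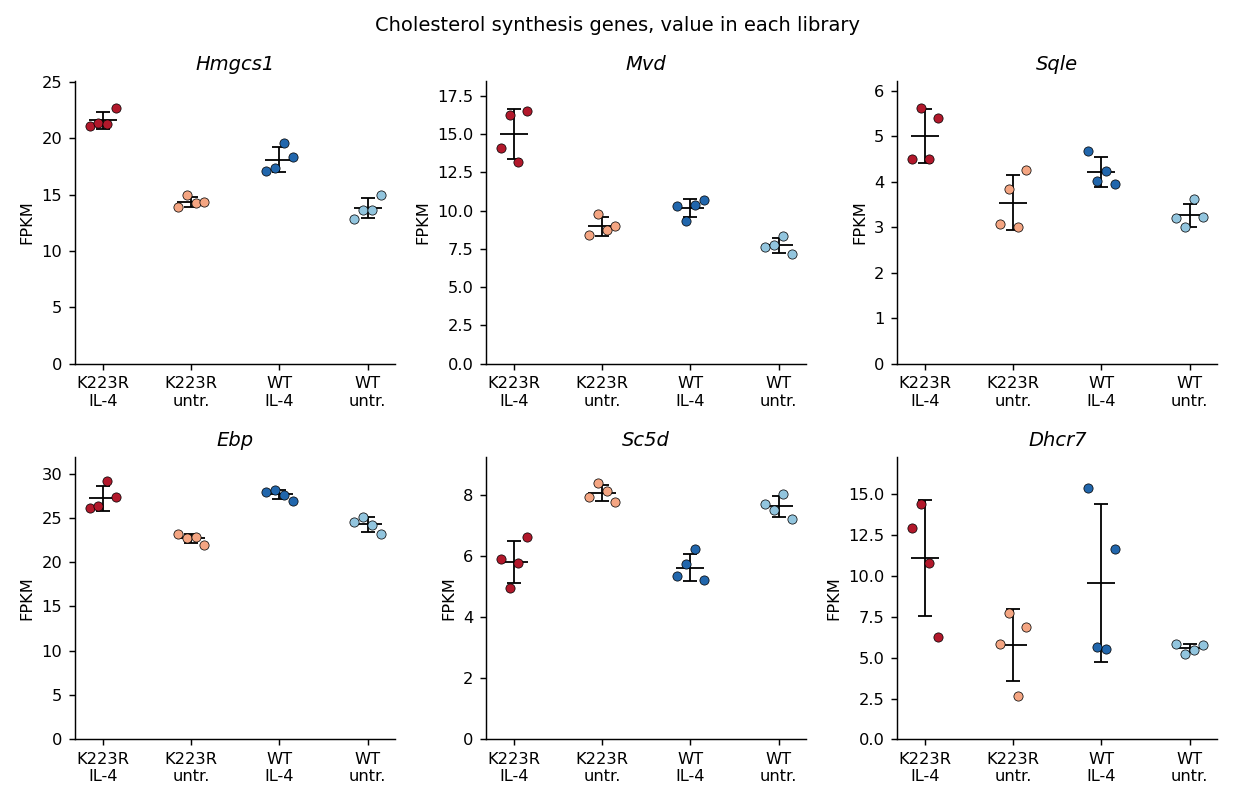
FPKM of 6 synthesis genes in each of the 16 libraries, with 1 panel a gene, 1 point a library, and the mean ± SD of each group as bars (n = 4 libraries a group; untr., untreated). Hmgcs1 and Mvd are highest in the 4 Sirt3 K223R libraries with IL-4, Sc5d is lower with IL-4 in both genotypes, and Dhcr7 spreads from 6.27 to 14.4 FPKM among the Sirt3 K223R libraries with IL-4.

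In the mevalonate pathway, 4 of 7 genes were called higher with IL-4 in each genotype and 0 lower. For all genes tested the shares were 13.5% higher and 29.1% lower in Sirt3 K223R cells, and 10.7% and 15.3% in wild-type cells. Hmgcs1 (ENSMUSG00000093930; chr13:119690379-119708260 on GRCm38, plus strand) makes HMG-CoA, from which mevalonate is formed. It stood at 21.03, 21.3, 21.3 and 22.7 FPKM in Sirt3 K223R cells given IL-4, against 13.9, 14.96, 14.3 and 14.3 FPKM in untreated Sirt3 K223R cells. Wild-type cells had 17.1, 17.4, 19.6 and 18.3 FPKM with IL-4, against 12.8, 13.6, 13.7 and 14.96 FPKM without it. Every IL-4 library lay above every untreated library, and the Sirt3 K223R libraries with IL-4 lay above all others. Its log2 change was 0.56 ± 0.05 in Sirt3 K223R cells and 0.37 ± 0.05 in wild-type cells (SE; adjusted p = 7.10e-07 and 8.29e-05).

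Mvd (ENSMUSG00000006517; chr8:122433601-122443422 on GRCm38, minus strand), which forms isopentenyl diphosphate, had 14.1, 16.3, 13.2 and 16.5 FPKM in Sirt3 K223R cells given IL-4, against 8.40, 9.81, 8.71 and 8.97 FPKM in untreated Sirt3 K223R cells. Wild-type cells had 10.3, 9.35, 10.4 and 10.7 FPKM with IL-4, against 7.62, 7.73, 8.36 and 7.19 FPKM without it. The groups with IL-4 lay apart from the untreated groups of the same genotype. The fitted log2 difference was 0.68 ± 0.07 in Sirt3 K223R cells and 0.36 ± 0.07 in wild-type cells (SE; adjusted p = 2.45e-06 and 0.00167). Idi1, the isomerase of isopentenyl diphosphate, averaged 4.95 ± 0.203 FPKM with IL-4 and 3.73 ± 0.641 FPKM without it in Sirt3 K223R cells (SD, n = 4 each). In wild-type cells Idi1 averaged 4.88 ± 0.373 FPKM with IL-4 and 3.50 ± 0.368 FPKM without it (SD, n = 4 each), and no library of an IL-4 group overlapped its untreated group.

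Fdps, which joins isoprenoid units into farnesyl diphosphate, had a log2 change of 0.30 ± 0.10 in Sirt3 K223R cells and 0.29 ± 0.10 in wild-type cells (SE; adjusted p = 0.0245 and 0.0444). Its calls depended on single libraries. In Sirt3 K223R cells it was lost without IL-4 replicate 2 or 4 or untreated replicate 1 or 3, at adjusted p from 0.0508 to 0.077. In wild-type cells it was lost without IL-4 replicate 2 or 3 or untreated replicate 1, 2 or 4, at adjusted p from 0.0615 to 0.143, and, with every wild-type library kept, when only those were fitted, at 0.0722. The remaining mevalonate genes were called in neither genotype. Mvk and Pmvk, the kinases that phosphorylate mevalonate in turn, had log2 changes of 0.18 and 0.26 in Sirt3 K223R cells and 0.15 and 0.04 in wild-type cells. In Sirt3 K223R cells both passed the threshold under median-ratio scaling (adjusted p = 0.0432 for Mvk and 0.0346 for Pmvk) and quantile normalization (0.0205 and 0.0416), Mvk also did without IL-4 replicate 3 (0.0454), and Pmvk without IL-4 replicate 1 (0.0159). Acat2, a cytosolic thiolase that makes acetoacetyl-CoA, had -0.23 and -0.03, and was called lower in Sirt3 K223R cells without IL-4 replicate 3 or untreated replicate 1 (adjusted p = 0.0472 and 0.0474). Acat2 has a close copy in the mouse, Acat3, and how reads of such copies were divided is not given, so its values are uncertain.

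In the sterol pathway, 6 of 10 genes tested were called higher with IL-4 in Sirt3 K223R cells and 5 of 10 in wild-type cells. Sc5d was called lower in both. Of all genes tested, 13.5% and 10.7% were called higher, and 29.1% and 15.3% lower, in the same order. Fdft1, the squalene synthase, averaged 3.37 ± 0.554 FPKM with IL-4 and 2.46 ± 0.29 FPKM without it in Sirt3 K223R cells, and 3.66 ± 0.732 and 2.57 ± 0.255 FPKM in wild-type cells (SD, n = 4 each). Sqle, the squalene epoxidase and a rate-limiting enzyme of the pathway, had 4.50, 5.62, 4.50 and 5.40 FPKM in Sirt3 K223R cells given IL-4, against 3.07, 3.84, 2.998 and 4.25 FPKM in untreated Sirt3 K223R cells. In wild-type cells Sqle had 4.68, 4.01, 4.23 and 3.94 FPKM with IL-4, against 3.19, 3.01, 3.61 and 3.22 FPKM without it. For both genes the IL-4 libraries lay above the untreated libraries of the same genotype. The log2 changes of Sqle were 0.41 ± 0.09 in Sirt3 K223R cells and 0.29 ± 0.09 in wild-type cells (SE; adjusted p = 0.00249 and 0.0295). In wild-type cells its call was lost without IL-4 replicate 1 or 3 or untreated replicate 1, 2 or 4, at adjusted p from 0.0586 to 0.0827. The call of Fdft1 was lost in Sirt3 K223R cells without IL-4 replicate 4 or untreated replicate 1 or 3, at adjusted p from 0.0518 to 0.0861. In wild-type cells it was lost without IL-4 replicate 3 or 4 or untreated replicate 2, at adjusted p from 0.0616 to 0.073.

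Of the enzymes that act after lanosterol, Cyp51, the lanosterol demethylase, had log2 changes of 0.26 ± 0.07 in Sirt3 K223R cells and 0.31 ± 0.07 in wild-type cells (SE; adjusted p = 0.0105 and 0.00542). Ebp, the sterol isomerase, averaged 27.2 ± 1.41 FPKM with IL-4 and 22.7 ± 0.503 FPKM without it in Sirt3 K223R cells (SD, n = 4 each). In wild-type cells Ebp averaged 27.6 ± 0.518 FPKM with IL-4 and 24.3 ± 0.815 FPKM without it (SD, n = 4 each). Its rise was small and even, with no overlap between IL-4 and untreated libraries in either genotype. Nsdhl, which removes the methyl groups at carbon 4 of the sterol ring with Msmo1, rose by 0.29 in Sirt3 K223R cells and by 0.33 in wild-type cells on the log2 scale (adjusted p = 0.019 and 0.014), while Msmo1 had 0.09 and 0.07 and was not called. In Sirt3 K223R cells the call of Nsdhl was lost without IL-4 replicate 3 or 4 or untreated replicate 3, at adjusted p from 0.0525 to 0.0583. Lss, the lanosterol synthase, had log2 changes of 0.01 and 0.02 and was not called.

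Sc5d (ENSMUSG00000032018; chr9:42251595-42264256 on GRCm38, minus strand), which introduces the double bond at carbon 5 late in the pathway, went the other way. It had 5.90, 4.94, 5.77 and 6.64 FPKM in Sirt3 K223R cells given IL-4, against 7.94, 8.40, 8.15 and 7.77 FPKM in untreated Sirt3 K223R cells. The wild-type values were 5.34, 5.74, 6.22 and 5.21 FPKM with IL-4, against 7.71, 7.52, 8.05 and 7.23 FPKM without it. All 8 IL-4 libraries lay below all 8 untreated ones. limma gave a log2 change of -0.42 ± 0.07 in Sirt3 K223R cells and -0.38 ± 0.07 in wild-type cells (SE; adjusted p = 0.000212 and 0.000741).

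Dhcr7, which carries out the last reduction on a branch to cholesterol, varied widely among the libraries of a group. It had 12.9, 14.4, 10.8 and 6.27 FPKM in Sirt3 K223R cells given IL-4, against 5.83, 7.71, 2.66 and 6.87 FPKM in untreated Sirt3 K223R cells. Among wild-type libraries it was 15.4, 5.65, 5.54 and 11.7 FPKM with IL-4, against 5.82, 5.25, 5.50 and 5.79 FPKM without it. In wild-type cells replicates 1 and 4 with IL-4 stood above the untreated libraries and replicates 2 and 3 stood among them. The log2 change was 0.85 ± 0.32 in Sirt3 K223R cells (SE; adjusted p = 0.0416) and 0.57 ± 0.32 in wild-type cells (adjusted p = 0.221). The call in Sirt3 K223R cells was lost without IL-4 replicate 1, 2 or 3 or untreated replicate 1 or 3, at adjusted p from 0.0634 to 0.145, and its log2 change was then between 0.58 and 0.88. Fitting only the Sirt3 K223R libraries lost it too, at 0.0546. Tm7sf2, a sterol reductase at 1.31 to 2.91 FPKM, had -0.25 in Sirt3 K223R cells and 0.19 in wild-type cells and was called in neither. In Sirt3 K223R cells it passed the threshold without IL-4 replicate 2 or untreated replicate 3 (adjusted p = 0.0309 and 0.0432) and with a pseudocount of 0.1 (0.0495).

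Promoters are shown for the synthesis genes with the smallest adjusted p in Sirt3 K223R cells (Hmgcs1, Mvd and Sc5d, which also had the largest fall) and for Apoe, the LXR target with the smallest adjusted p of those with an entry. Each is the RefSeq window on GRCm38 from 250 bases before to 50 after the gene's start, 5′ to 3′ on the gene's strand, with motif matches in capitals. The motifs searched on both strands were the sterol regulatory element TCACNCCAC, bound by SREBP, the CCAAT box, bound by NF-Y, a partner of SREBP, and the DR4 element bound by LXR, which is AGGTCA, any 4 bases and AGGTCA with at most 1 mismatch in each AGGTCA. The window of Hmgcs1 is chr13:119690101-119690400 on the plus strand, that of Mvd chr8:122443373-122443672, that of Sc5d chr9:42264251-42264550 and that of Apoe chr7:19699139-19699438, all 3 on the minus strand.
Hmgcs1: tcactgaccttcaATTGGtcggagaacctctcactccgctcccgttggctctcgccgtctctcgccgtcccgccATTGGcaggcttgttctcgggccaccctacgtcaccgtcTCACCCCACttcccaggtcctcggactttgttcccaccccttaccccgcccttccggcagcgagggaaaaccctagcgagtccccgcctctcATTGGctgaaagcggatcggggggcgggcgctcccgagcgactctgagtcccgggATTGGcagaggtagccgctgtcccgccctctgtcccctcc
Mvd: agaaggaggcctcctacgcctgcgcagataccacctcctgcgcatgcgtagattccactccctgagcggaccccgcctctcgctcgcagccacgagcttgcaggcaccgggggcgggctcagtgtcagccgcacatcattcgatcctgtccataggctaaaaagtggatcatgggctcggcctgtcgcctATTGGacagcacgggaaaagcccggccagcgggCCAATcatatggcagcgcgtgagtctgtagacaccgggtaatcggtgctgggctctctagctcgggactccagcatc
Sc5d: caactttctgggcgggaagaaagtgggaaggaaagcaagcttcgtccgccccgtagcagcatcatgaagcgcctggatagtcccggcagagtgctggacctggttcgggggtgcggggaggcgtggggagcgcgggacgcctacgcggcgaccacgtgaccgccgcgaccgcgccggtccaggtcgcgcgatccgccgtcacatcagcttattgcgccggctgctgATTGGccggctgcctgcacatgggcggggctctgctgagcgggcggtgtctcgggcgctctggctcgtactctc
Apoe: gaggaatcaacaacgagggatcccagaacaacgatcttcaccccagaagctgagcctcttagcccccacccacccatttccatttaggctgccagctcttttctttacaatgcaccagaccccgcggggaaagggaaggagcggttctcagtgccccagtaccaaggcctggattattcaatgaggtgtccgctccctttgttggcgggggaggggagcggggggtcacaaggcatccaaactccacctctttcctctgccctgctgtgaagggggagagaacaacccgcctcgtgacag
The window of Hmgcs1 holds a sterol regulatory element 137 bases before the start and 4 CCAAT boxes, all read on the opposite strand as ATTGG. That of Mvd holds a CCAAT box on each strand, 60 and 27 bases before the start, and that of Sc5d holds 1, 24 bases before the start.

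Of the 37 genes, 30 had a promoter entry, 15 of synthesis and 15 of the others. Npc1, Fdft1, Sqle, Abcg1, Scd2, Stard4 and Fdps had no entry. A CCAAT box on either strand stood in 14 of 15 synthesis promoters and 9 of 15 of the others, against 41.1% of 27025 genes with a window of the same length, counting a gene where any of its windows held one. In the window nearest the gene start alone it stood in 13 of 15 synthesis promoters, since that of Dhcr7 lies at a start further along the gene, and in 9 of 15 of the others, against 37.4% of 32851 windows. The sterol regulatory element stood in 1 of 15 synthesis promoters, that of Hmgcs1, and in 0 of 15 of the others, against 1.44% of all genes. The DR4 letters stood in 0 of the 30, against 2.02% of all genes. A match is a run of letters in this window and not a measured binding site. The windows of Hmgcs1, Mvd and Sc5d each hold a CCAAT box. Any link of a motif to the direction of change was not tested.

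In Sirt3 K223R cells the genes that control SREBP were called in both directions. In wild-type cells only Scap was called, and it was lower. Srebf2, which encodes the SREBP that mainly raises cholesterol genes, had 18.4, 22.2, 17.2 and 19.6 FPKM in Sirt3 K223R cells given IL-4, against 12.8, 18.2, 14.2 and 15.7 FPKM in untreated Sirt3 K223R cells. With IL-4 wild-type cells had 17.1, 18.2, 17.1 and 15.2 FPKM, against 13.7, 13.7, 15.3 and 14.4 FPKM in untreated wild-type cells. The groups overlapped in both genotypes. Its log2 change was 0.33 ± 0.09 in Sirt3 K223R cells (SE; adjusted p = 0.0103) and 0.23 ± 0.09 in wild-type cells (adjusted p = 0.0883). Wild-type libraries with the same number deviated together, and with the number as a block the wild-type value was called (adjusted p = 0.0236), as it was when only wild-type libraries were fitted (0.0284). Srebf1, whose product mainly raises fatty acid genes, averaged 9.03 ± 1.04 FPKM with IL-4 and 7.41 ± 0.323 FPKM without it in Sirt3 K223R cells (SD, n = 4 each), without overlap. Its log2 change was 0.25 ± 0.07 in Sirt3 K223R cells (SE; adjusted p = 0.00909) and 0.06 ± 0.07 in wild-type cells (adjusted p = 0.575).

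Scap, the escort protein of SREBP, had 6.55, 6.35, 7.19 and 6.38 FPKM in Sirt3 K223R cells given IL-4, against 8.43, 8.57, 8.95 and 8.59 FPKM in untreated Sirt3 K223R cells. Wild-type cells had 7.02, 6.49, 6.77 and 6.66 FPKM with IL-4, against 8.12, 7.76, 8.02 and 7.88 FPKM without it. Every IL-4 library lay below every untreated library. The fitted log2 difference was -0.34 ± 0.05 in Sirt3 K223R cells and -0.21 ± 0.05 in wild-type cells (SE; adjusted p = 2.28e-05 and 0.00266). Insig1 and Insig2, which retain Scap, had log2 changes of 0.11 and 0.02 in Sirt3 K223R cells and 0.17 and 0.17 in wild-type cells, and neither was called. Insig1 passed the threshold in both genotypes under both other scalings, at adjusted p from 0.00914 to 0.0337, in Sirt3 K223R cells without IL-4 replicate 2 (0.0227) and in wild-type cells when only their libraries were fitted (0.0395). Insig2 passed it in wild-type cells under both other scalings (0.0214 and 0.0274) and without IL-4 replicate 3 (0.0118). In all, 2 of the 5 control genes were called higher and 1 lower in Sirt3 K223R cells, and 0 higher and 1 lower in wild-type cells. The shares of all genes tested called higher and lower were 13.5% and 29.1% in Sirt3 K223R cells, and 10.7% and 15.3% in wild-type cells.

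Of the 3 fatty acid synthesis genes, Scd2 rose and the others were not called. Scd2 (ENSMUSG00000025203; chr19:44293676-44306864 on GRCm38, plus strand), a desaturase that makes monounsaturated fatty acids, had 14.3, 17.3, 12.9 and 16.9 FPKM in Sirt3 K223R cells given IL-4, against 3.77, 5.54, 4.24 and 4.91 FPKM in untreated Sirt3 K223R cells. The wild-type values were 9.06, 11.8, 11.2 and 10.3 FPKM with IL-4, against 3.24, 4.12, 4.71 and 3.86 FPKM without it. Every IL-4 library lay above every untreated one, and the Sirt3 K223R libraries with IL-4 were the highest. limma gave a log2 change of 1.54 ± 0.12 in Sirt3 K223R cells and 1.22 ± 0.12 in wild-type cells (SE; adjusted p = 7.55e-08 and 1.69e-06), the largest rise among the 36 genes tested in both. Scd2 has close relatives in the same family, so its reads may be shared with them. Fasn, the fatty acid synthase, had log2 changes of 0.00 and -0.03 and Acaca, which makes malonyl-CoA, had 0.13 and 0.11. Acaca passed the threshold in Sirt3 K223R cells under quantile normalization (adjusted p = 0.0164) and without IL-4 replicate 2 (0.034).

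The LXR receptors and targets split by gene with IL-4. Of these 7 genes, 2 were called higher and 3 lower in Sirt3 K223R cells, and 1 higher and 4 lower in wild-type cells. Abcg1 rose in both genotypes while Apoe, Mylip and Nr1h3 fell in both. The 19 genes outside synthesis had 7 called higher and 4 lower in Sirt3 K223R cells and 3 higher and 5 lower in wild-type cells, with medians of 0.02 and 0.06 on the log2 scale. The shares of all genes called are those given above for the same comparisons.

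Nr1h3, which encodes LXR alpha, had 15.6, 15.2, 15.4 and 15.9 FPKM in Sirt3 K223R cells given IL-4, against 20.05, 21.6, 21.7 and 21.1 FPKM in untreated Sirt3 K223R cells. Among wild-type libraries it was 20.5, 17.1, 16.4 and 16.7 FPKM with IL-4, against 20.9, 20.8, 20.6 and 20.6 FPKM without it. Wild-type replicate 1 with IL-4 stood just under the untreated libraries and the other 3 well below them. The log2 change was -0.42 ± 0.06 in Sirt3 K223R cells and -0.22 ± 0.06 in wild-type cells (SE; adjusted p = 3.12e-05 and 0.00953). Nr1h2, which encodes LXR beta, had -0.15 and 0.03 and was not called.

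Abca1 (ENSMUSG00000015243; chr4:53030787-53159895 on GRCm38, minus strand), which passes cholesterol to lipid-poor apolipoprotein, had 42.9, 36.1, 43.5 and 39.5 FPKM in Sirt3 K223R cells given IL-4, against 43.9, 39.7, 50.6 and 39.6 FPKM in untreated Sirt3 K223R cells. With IL-4 wild-type cells had 22.5, 23.9, 23.99 and 26.1 FPKM, against 29.2, 31.5, 43.6 and 38.4 FPKM in untreated wild-type cells. The Sirt3 K223R groups overlapped, and the wild-type groups did not. Its log2 change was -0.10 ± 0.11 in Sirt3 K223R cells (SE; adjusted p = 0.519) and -0.53 ± 0.11 in wild-type cells (adjusted p = 0.00217). Abcg1 (ENSMUSG00000024030; chr17:31057698-31115777 on GRCm38, plus strand), which passes cholesterol to high-density lipoprotein, had 138, 136, 152 and 138 FPKM in Sirt3 K223R cells given IL-4, against 64.5, 60.9, 72.6 and 61.9 FPKM in untreated Sirt3 K223R cells. Wild-type cells had 107, 90.6, 93.3 and 99.7 FPKM with IL-4, against 80.9, 51.8, 60.9 and 60.01 FPKM without it. Every IL-4 library lay above every untreated library. The fitted log2 difference was 1.11 ± 0.10 in Sirt3 K223R cells and 0.63 ± 0.10 in wild-type cells (SE; adjusted p = 6.14e-07 and 0.000313).

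The ratio of Abcg1 to Abca1 FPKM within a library gives the shift between these transporters without reference to any other gene. It was 3.22, 3.78, 3.50 and 3.48 in Sirt3 K223R cells given IL-4, against 1.47, 1.54, 1.44 and 1.56 in untreated Sirt3 K223R cells. In wild-type cells it was 4.76, 3.79, 3.89 and 3.82 with IL-4, against 2.77, 1.65, 1.40 and 1.56 without it. The ratio was higher in every IL-4 library than in any untreated library, and wild-type replicate 1 had the highest ratio of its group in both treatments. This pair was chosen after its values were seen, and no test was made.

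Apoe (ENSMUSG00000002985; chr7:19696109-19699188 on GRCm38, minus strand), the apolipoprotein that macrophages secrete to accept cholesterol, was the most abundant of the 37 genes. It had 1043, 1152, 1009 and 926 FPKM in Sirt3 K223R cells given IL-4, against 3220, 2712, 2734 and 2975 FPKM in untreated Sirt3 K223R cells. The wild-type values were 1106, 1435, 1964 and 1762 FPKM with IL-4, against 2163, 2418, 3026 and 2653 FPKM without it. The IL-4 libraries lay below the untreated libraries in both genotypes, with more spread among the wild-type ones. limma gave a log2 change of -1.50 ± 0.15 in Sirt3 K223R cells and -0.73 ± 0.15 in wild-type cells (SE; adjusted p = 1.05e-06 and 0.0016). Mylip, also called Idol, a ubiquitin ligase, had 13.9, 10.2, 13.5 and 13.3 FPKM in Sirt3 K223R cells given IL-4, against 28.3, 21.8, 28.9 and 25.97 FPKM in untreated Sirt3 K223R cells. In wild-type cells Mylip had 12.05, 11.6, 12.3 and 14.6 FPKM with IL-4, against 19.8, 21.8, 26.7 and 25.3 FPKM without it, and no IL-4 library reached an untreated one. Its log2 change was -0.99 ± 0.12 in Sirt3 K223R cells and -0.83 ± 0.12 in wild-type cells (SE; adjusted p = 5.79e-06 and 5.87e-05). Lpcat3, which places polyunsaturated chains in phospholipids, had 0.34 ± 0.10 in Sirt3 K223R cells (adjusted p = 0.0128) and 0.11 ± 0.10 in wild-type cells (adjusted p = 0.455).

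**Figure D2:**
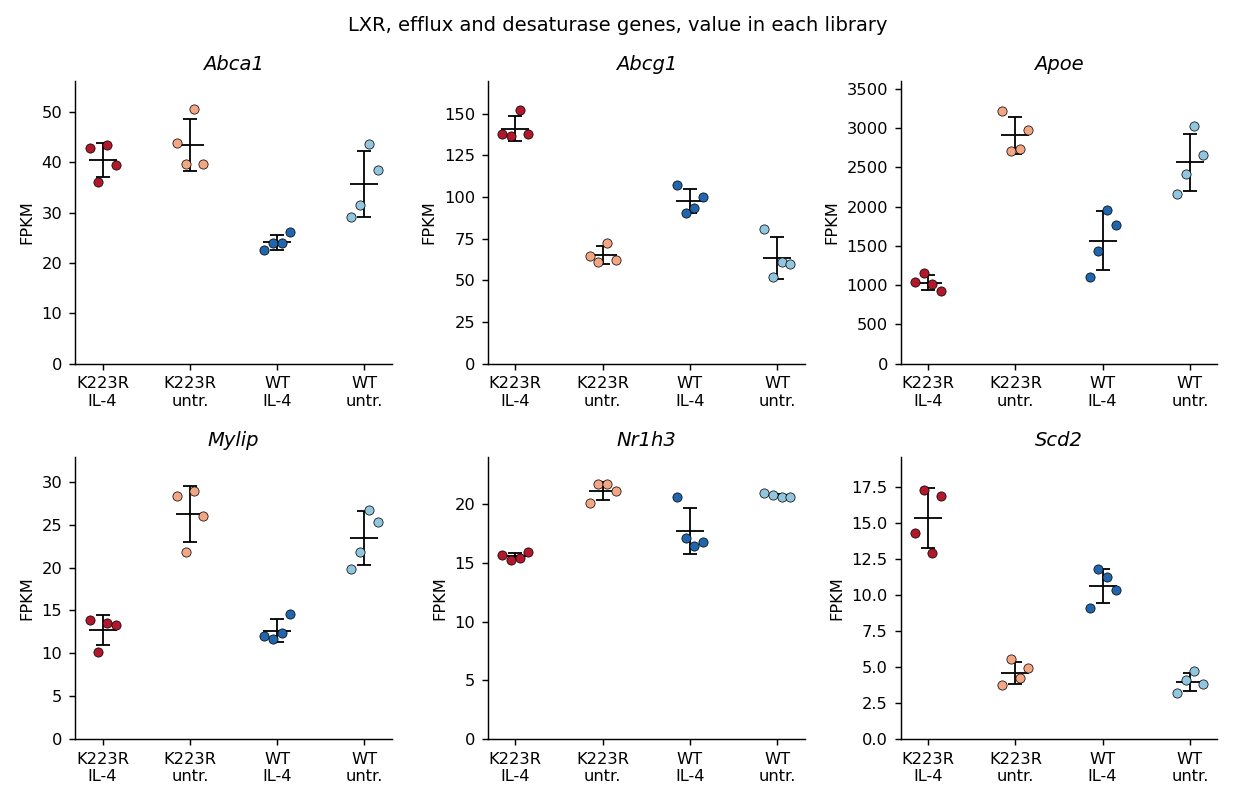
FPKM of 5 LXR and efflux genes and of Scd2 in each of the 16 libraries, with 1 panel a gene, 1 point a library, and the mean ± SD of each group as bars (n = 4 libraries a group; untr., untreated). Abca1 is lowest in the wild-type libraries with IL-4, at 22.5 to 26.1 FPKM, while Abcg1 and Scd2 are highest and Apoe is lowest on average in the Sirt3 K223R libraries with IL-4.

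Among the genes that handle cholesterol inside the cell, Stard4, a cytosolic sterol carrier, rose in both genotypes. It averaged 5.05 ± 0.227 FPKM with IL-4 and 3.70 ± 0.348 FPKM without it in Sirt3 K223R cells, and 4.40 ± 0.105 and 3.51 ± 0.541 FPKM in wild-type cells (SD, n = 4 each). The IL-4 and untreated libraries did not overlap. The log2 change was 0.37 ± 0.08 in Sirt3 K223R cells and 0.27 ± 0.08 in wild-type cells (SE; adjusted p = 0.00137 and 0.0168). In wild-type cells the call was lost without untreated replicate 4, at a log2 change of 0.20 and adjusted p = 0.0578, and when only wild-type libraries were fitted, at 0.0502. Npc2, a lysosomal cholesterol-binding protein, rose by 0.15 in Sirt3 K223R cells (adjusted p = 0.012), a direction that turned to -0.0025 under quantile normalization. Npc1, its membrane partner, had -0.15 in Sirt3 K223R cells and 0.04 in wild-type cells. Soat1, which stores cholesterol as ester, had -0.11 and -0.10, and neither gene was called.

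**Figure D3:**
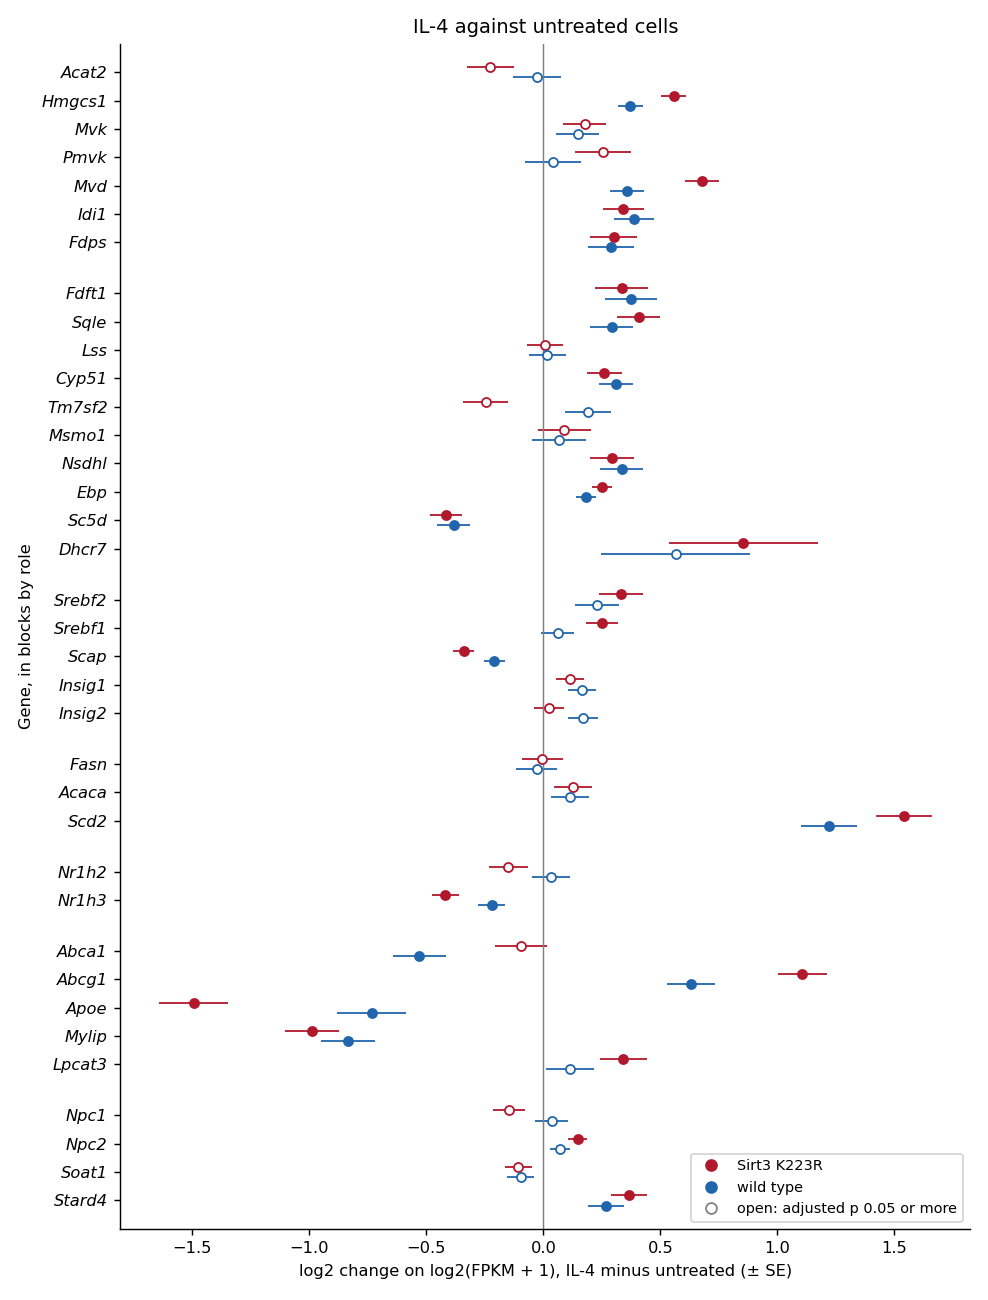
Difference of mean log2(FPKM + 1), IL-4 minus untreated, with its SE for the 36 genes tested, in blocks by role (red, Sirt3 K223R; blue, wild type; n = 4 libraries a group). Filled points have an adjusted p under 0.05. Scd2 has the largest rise at 1.54 and 1.22, and Apoe has the lowest value in Sirt3 K223R cells at -1.50.

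With IL-4, Sirt3 K223R cells differed from wild-type cells in 8 of the 36 genes, with 6 called higher and 2 lower. Abca1, Abcg1, Mvd, Hmgcs1, Scd2 and Srebf1 were higher in Sirt3 K223R cells, and Apoe and Tm7sf2 were lower. Among all genes tested, 5.0% were called higher and 10.0% lower. Of the synthesis genes 2 of 17 were called higher and 1 lower, with a median of 0.04 on the log2 scale, where the median over all genes was -0.05. Of the other genes 4 of 19 were called higher and 1 lower, with a median of 0.03. The direction among all genes called depended on scaling, since 33.3% of them were higher as analysed and 57.5% after median-ratio scaling. The tables of the genotypes differ in format, and a difference in how they were processed cannot be told apart from genotype.

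Abca1 had 42.9, 36.1, 43.5 and 39.5 FPKM in Sirt3 K223R cells given IL-4, against 22.5, 23.9, 23.99 and 26.1 FPKM in wild-type cells given IL-4. The groups lay far apart, at a log2 difference of 0.72 ± 0.11 (SE; adjusted p = 0.000775). Abcg1 and Scd2, whose values are given above, did not overlap between genotypes either. Their log2 differences were 0.53 ± 0.10 and 0.49 ± 0.12 (SE; adjusted p = 0.00399 and 0.0125). Mvd averaged 15.002 ± 1.63 FPKM in Sirt3 K223R cells and 10.2 ± 0.583 FPKM in wild-type cells with IL-4 (SD, n = 4 each), a log2 difference of 0.51 ± 0.07 (SE; adjusted p = 0.00043). Hmgcs1 averaged 21.6 ± 0.762 FPKM in Sirt3 K223R cells and 18.1 ± 1.11 FPKM in wild-type cells with IL-4 (SD, n = 4 each), a log2 difference of 0.24 ± 0.05 (SE; adjusted p = 0.00682). Neither gene's groups overlapped. Nr1h3 and Stard4 did not overlap between genotypes either but were not called, at log2 differences of -0.17 ± 0.06 and 0.16 ± 0.08 (SE; adjusted p = 0.0578 and 0.169). How many of all genes lacked overlap in this comparison was not counted. Mylip, which fell with IL-4 in both genotypes, had a log2 difference of 0.00 ± 0.12 (SE). Without wild-type replicate 3, Nr1h3 and Insig2 were called lower (adjusted p = 0.0396 and 0.0282), and without Sirt3 K223R replicate 2, Lpcat3 was called higher (0.0481).

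The calls of Apoe, Srebf1 and Tm7sf2 were less stable. Apoe had 1043, 1152, 1009 and 926 FPKM in Sirt3 K223R cells given IL-4, against 1106, 1435, 1964 and 1762 FPKM in wild-type cells given IL-4. Wild-type replicate 1 fell among the Sirt3 K223R libraries. The log2 difference was -0.57 ± 0.15 (SE; adjusted p = 0.0171), and the call was lost without wild-type replicate 3 or 4, at adjusted p of 0.052 and 0.0532, under quantile normalization, at 0.0853, and when only these 8 libraries were fitted, at 0.074. Srebf1 had a log2 difference of 0.24 ± 0.07 (SE; adjusted p = 0.0312), with overlapping groups. It was lost without Sirt3 K223R replicate 1 or 2 or wild-type replicate 2 or 4, at adjusted p from 0.0551 to 0.0897, and when only these 8 were fitted, at 0.133. Tm7sf2 had 1.79, 1.93, 1.31 and 1.59 FPKM in Sirt3 K223R cells given IL-4, against 2.33, 2.91, 2.06 and 1.94 FPKM in wild-type cells given IL-4. The difference of -0.32 ± 0.10 (SE; adjusted p = 0.0395) was lost without Sirt3 K223R replicate 1, 3 or 4 or wild-type replicate 1 or 2, at adjusted p from 0.0516 to 0.112, and under both other scalings, at 0.0835 and 0.103, and when only these 8 were fitted, at 0.12.

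**Figure D4:**
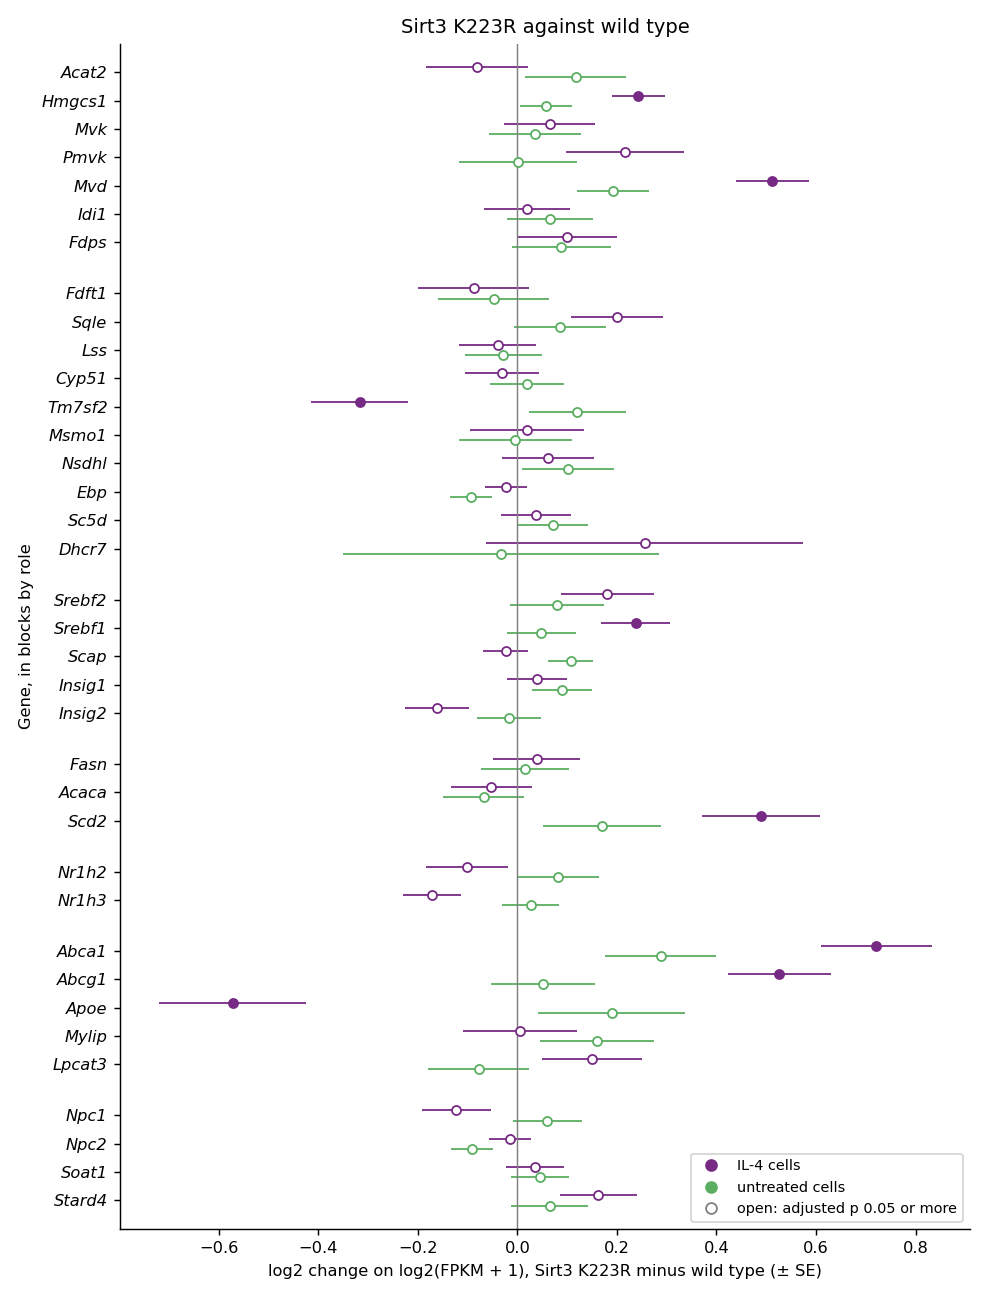
Difference of mean log2(FPKM + 1), Sirt3 K223R minus wild type, with its SE for the 36 genes tested, in blocks by role (purple, IL-4 cells; green, untreated cells; n = 4 libraries a group). Filled points have an adjusted p under 0.05. The filled points are all in IL-4 cells, and Abca1 has the highest of them at 0.72.

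Without IL-4, limma called 0 of the 36 genes between Sirt3 K223R and wild-type cells. Among all genes tested, 0.0% were called higher and 0.0% lower. At an unadjusted p under 0.05 there were 5 of the 36 genes (Mvd, Ebp, Scap, Abca1 and Npc2) and 737 of all genes, and the smallest adjusted p of the 36 was 0.581. Abca1 had 43.9, 39.7, 50.6 and 39.6 FPKM in untreated Sirt3 K223R cells, against 29.2, 31.5, 43.6 and 38.4 FPKM in untreated wild-type cells. These groups overlapped, and the log2 difference was 0.29 ± 0.11 (SE). Mvd had a log2 difference of 0.19 ± 0.07 (SE), Scap of 0.11 ± 0.05 (SE) and Ebp of -0.09 ± 0.04 (SE), each without overlap between the genotypes. None of these was called, and the share of all genes without overlap was not counted.

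Whether the IL-4 response differed between the genotypes was tested by the interaction, the change in Sirt3 K223R cells minus that in wild-type cells. limma called 0 of the 36 genes, where 0.778% of all genes were called higher and 1.36% lower. At an unadjusted p under 0.05 there were 7 of the 36 genes (Apoe, Abcg1, Tm7sf2, Mvd, Abca1, Hmgcs1 and Nr1h3) and 1588 of all 9891 genes tested. The share among the 36 thus lies near that among all genes. Apoe had an interaction of -0.76 ± 0.21 (SE; adjusted p = 0.0751), which was called without wild-type IL-4 replicate 1 (adjusted p = 0.018). Abcg1 had 0.48 ± 0.15 (SE; adjusted p = 0.117), which was called without wild-type untreated replicate 2 (adjusted p = 0.0499). Mvd had 0.32 ± 0.10 (SE; adjusted p = 0.131), Abca1 had 0.43 ± 0.16 (SE; adjusted p = 0.184) and Tm7sf2 had -0.44 ± 0.14 (SE; adjusted p = 0.122). With the replicate number as a block, Apoe, Abcg1 and Tm7sf2 were called (adjusted p = 0.0158, 0.0237 and 0.0393). Whether the numbers pair the Sirt3 K223R libraries is not known. The 9 synthesis genes that rose with IL-4 in both genotypes had interactions between -0.05 (Cyp51) and 0.32 (Mvd), with SE from 0.06 to 0.16, and Hmgcs1 and Sqle came next to Mvd at 0.19 and 0.11. Over all genes, the 212 interactions called became 344 without Sirt3 K223R IL-4 replicate 2. The IL-4 change of Abca1 was thus called in wild-type cells and not in Sirt3 K223R cells without a called difference between them.

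Lists of 66 further genes of the same pathways were read in the same fit, of which 50 were tested. With IL-4, 5 were called higher and 25 lower in Sirt3 K223R cells, where 13.5% of all genes tested were called higher and 29.1% lower. In wild-type cells 4 were called higher and 15 lower, where the shares of all genes were 10.7% and 15.3%. Of 4 further synthesis genes, 2 were called higher in each genotype, and 1 was called lower in Sirt3 K223R cells. Acat1, a mitochondrial acetoacetyl-CoA thiolase, was called higher in both genotypes and is named after its values were seen, with log2 changes of 0.41 ± 0.07 in Sirt3 K223R cells and 0.40 ± 0.07 in wild-type cells. Of 15 further genes of the SREBP system, 1 was called higher in each genotype, with 9 lower in Sirt3 K223R cells and 4 in wild-type cells. The one that rose in both was Lpin1, a phosphatidate phosphatase, at 0.54 ± 0.09 in Sirt3 K223R cells and 0.47 ± 0.09 in wild-type cells.

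Of 16 further genes of the LXR system and efflux, 2 were called higher and 10 lower in Sirt3 K223R cells, and 1 higher and 8 lower in wild-type cells. Rxra, the partner receptor of LXR, had log2 changes of -0.72 ± 0.10 in Sirt3 K223R cells and -0.38 ± 0.10 in wild-type cells. Apoc1, which lies beside Apoe in the genome, had -1.31 ± 0.27 and -0.86 ± 0.27. Scarb1, a receptor for high-density lipoprotein, had -0.56 ± 0.07 and -0.31 ± 0.07, and Plin2, a coat protein of lipid droplets, had -0.70 ± 0.07 and -0.47 ± 0.07. Nr1d2, a nuclear receptor of the circadian clock, had -0.55 ± 0.09 and -0.62 ± 0.09. Arl4c, an LXR target, rose by 0.83 ± 0.11 in Sirt3 K223R cells and by 0.58 ± 0.11 in wild-type cells. Pltp, a phospholipid transfer protein, had 0.15 ± 0.16 in Sirt3 K223R cells, which was not called, and -0.54 ± 0.16 in wild-type cells, which was. Of 15 genes of cholesterol transport, 5 were called lower in Sirt3 K223R cells and 3 in wild-type cells, with 0 higher. The shares of all genes tested called lower were 29.1% and 15.3%, so these counts of lower genes lie near those shares. Among them Scarb2, a lysosomal membrane protein, had -0.80 ± 0.07 and -0.49 ± 0.07, and Osbpl8, a lipid exchanger at membrane contacts, had -0.46 ± 0.10 and -0.54 ± 0.10. Gramd1a, a sterol transporter at membrane contacts, had -0.52 ± 0.11 in Sirt3 K223R cells and -0.25 ± 0.11, not called, in wild-type cells.

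Between genotypes with IL-4, 6 of these 50 genes were called higher in Sirt3 K223R cells and 4 lower, where 5.0% of all genes tested were called higher and 10.0% lower. Pltp was higher by 0.73 ± 0.16 on the log2 scale and Cyp27a1, which makes an oxidised sterol that activates LXR, by 0.51 ± 0.12. Arl4c was higher by 0.43 ± 0.11. Apoc1 was lower at -0.83 ± 0.27 and Rxra at -0.31 ± 0.10. Without IL-4, 0 of the 50 were called. Lpl, the lipoprotein lipase, was the 1 gene of the lists with a called interaction, at -0.44 ± 0.11, and is named outside the rule for its count of 1.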

How the data were processed

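RNA of 16 macrophage libraries was sequenced from both ends after poly(A) selection or, alternatively, ribosomal RNA removal and stranded library preparation, per the labels' protocols, which do not say which was used where. FPKM is the inferred unit of the values the authors deposited, since the file headers name none, and TPM over more genes than these would look alike. Depth could not be worked out from the low values, so it is unknown, and the 4 libraries of a group are the measure of precision. The aligner, the counter and the build of the genome are not stated in the labels or headers. Coordinates equal those of GENCODE M21 (GRCm38) for all 9522 identifiers of the same version. A column of gene types is in the Sirt3 K223R tables and not in the wild-type ones. Each table held 1 blank line, which was left out.

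Genes at 1 FPKM or more in at least 4 libraries (9891 genes) were set on a log2(FPKM + 1) scale, and 1 linear model with 4 group means was fitted with limma (version 3.58.1, under R 4.3.3), using its empirical Bayes step with a trend of variance on mean level. The 5 contrasts were the effect of IL-4 within either genotype, the effect of genotype within either treatment, and the interaction. Benjamini-Hochberg adjustment ran over all genes tested, and the fit was tested on simulated data. Tables and figures were made with Python 3.11.15, pandas 2.3.3 and matplotlib 3.10.9. Groups and replicate numbers come from the labels. Same-numbered wild-type libraries deviated together across genes, with correlations of 0.286, 0.122, 0.1 and 0.116, all over 0.1, so they may be pairs, which the labels do not state. Those of Sirt3 K223R had correlations from -0.0452 to 0.127, over 0.1 for replicate 3 only, and whether they are pairs is not known. The main fit used no pairs, so its p-values ignore any pairing, and the replicate number entered only as a block among the alternatives. With that block, IL-4 in wild-type cells had 2707 genes called, against 2575 in the main fit.

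All 37 genes are named. Genes of the further lists are named where called in a contrast with an absolute log2 change of at least 0.5, and exceptions are stated. Some genes of these lists and of the marker lists are not reported here. The genes and lists were chosen with earlier results of these data known. Promoters are from RefSeq on GRCm38.p6. Alternatives tried were a pseudocount of 0.1, no filter, median-ratio scaling, quantile normalization, a fit on the groups of a contrast alone, the replicate number as a block, and leaving out each library.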

Additional observations from a re-analysis of the deposited data

Results flagged for a closer look

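In groups of 4 libraries, a library was marked where its gap to the nearest other, divided by the range of the group, was above Dixon's critical value for 4 samples. Of 148 groups of values, 9 were marked (chance marks about 1 in 20), and no gene of the 36 had a called interaction. With IL-4 in Sirt3 K223R cells, replicate 4 stood high for Hmgcs1 at 22.7 FPKM (the others 21.0 to 21.3) and for Idi1 at 5.26 FPKM (the others 4.84 to 4.87). Replicate 3 of that group stood high for Abcg1 at 152 FPKM (the others 136 to 138), and replicate 2 stood low for Mylip at 10.2 FPKM (the others 13.3 to 13.9). In untreated Sirt3 K223R cells, replicate 4 stood high for Srebf1 at 7.89 FPKM (the others 7.22 to 7.31) and replicate 1 low for Npc1 at 29.2 FPKM (the others 31.8 to 32.1). In wild-type cells given IL-4, replicate 3 stood high for Fdps at 9.41 FPKM (the others 6.96 to 7.25) and replicate 1 high for Fasn at 3.98 FPKM (the others 2.99 to 3.15). In untreated wild-type cells, replicate 4 stood low for Tm7sf2 at 1.56 FPKM (the others 1.98 to 2.01). No part of these in the results was tested beyond leaving the libraries out.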

How the results depend on the processing

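Of 180 gene changes (36 genes in 5 contrasts), the call, or the sign of a called change, moved for 0 without a filter, 1 with a pseudocount of 0.1, 6 under median-ratio scaling, 10 under quantile normalization and 6 with the replicate block, and for 8 of 144 in the fit on the groups of a contrast alone. Among changes not called, a further 17 differed in sign under median-ratio scaling and 15 under quantile normalization. Quantile normalization turned Npc2, at -0.0025 in Sirt3 K223R cells and -0.13 in wild-type cells (adjusted p = 0.0285). In that fit on 2 groups, Sirt3 K223R against wild type with IL-4 had 703 genes called, and 3 of the 19 genes outside synthesis, against 1487 and 5, and 1 gene was called without IL-4. With the replicate block the interaction called 326 genes (against 212), 1 synthesis gene (Tm7sf2, adjusted p = 0.0393) and 2 others (Abcg1 and Apoe, at 0.0237 and 0.0158). The labels do not state whether replicate numbers pair the samples, within Sirt3 K223R libraries or across genotypes. The block changed the wild-type call of Srebf2 and, in Sirt3 K223R cells, those of Acat2 and Tm7sf2. The cause was not tested.

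Leaving out 1 library in turn, IL-4 in Sirt3 K223R cells had 3651 to 4128 genes called, 8 to 11 of them synthesis genes and 11 to 13 others. IL-4 in wild-type cells had 2189 to 2519 genes, 7 to 10 and 7 to 9. Sirt3 K223R against wild type had 1201 to 1573 genes, 2 to 3 and 3 to 6 with IL-4, and 0 to 2 genes, 0 to 0 and 0 to 0 without it. The interaction had 112 to 344 genes, 0 to 0 and 0 to 1, with 344 without Sirt3 K223R IL-4 replicate 2, 116 without replicate 3 of that group, 112 and 136 without untreated Sirt3 K223R replicates 2 and 3, and 130 and 131 without wild-type IL-4 replicates 3 and 4. Of genes called, 31.6% were higher with IL-4 in Sirt3 K223R cells (51.0% after median-ratio scaling), 41.0% in wild-type cells (52.4%) and 36.3% for the interaction (59.2%). Unknown depth limits what can be said of genes near 1 FPKM, such as Lss and Hsd17b7.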

Other observations

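Within a library, the ratio of Npc2 to Npc1 FPKM was 10.5, 10.8, 10.5 and 9.62 in Sirt3 K223R cells given IL-4, against 9.29, 8.21, 7.89 and 8.24 in untreated Sirt3 K223R cells. In wild-type cells it was 9.40, 10.1, 9.57 and 9.20 with IL-4, against 10.0, 11.3, 8.18 and 8.19 without it. The Sirt3 K223R groups did not overlap and the wild-type groups did. The ratio of Nr1h3 to Nr1h2 FPKM, LXR alpha to LXR beta, was 1.07, 1.23, 1.05 and 1.17 in Sirt3 K223R cells given IL-4, against 1.33, 1.36, 1.48 and 1.31 in untreated Sirt3 K223R cells. In wild-type cells it was 1.32, 1.18, 1.24 and 1.01 with IL-4, against 1.36, 1.71, 1.30 and 1.36 without it. The ratio of Srebf2 to Srebf1 FPKM spanned 2.07 to 2.26 in Sirt3 K223R cells given IL-4 and 1.78 to 2.52 in untreated Sirt3 K223R cells, and 2.10 to 2.55 in wild-type cells given IL-4 and 1.85 to 2.13 in untreated wild-type cells. These pairs were chosen with the values in view, and no test was made.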
